A study of Rattus norvegicus with 13 samples.

Results

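MicroRNA (miRNA) levels of neurons were compared with those of oligodendrocytes, both grown as primary cultures from the cortex of newborn (postnatal day 1) rats. The comparison used 6 of the 13 arrays of the study, 3 per cell type, which were hybridized on the same slide and scanned together; astrocyte and microglia arrays lay on another slide. Of the 350 rat miRNAs on the array, 252 were detected on at least 3 of the 6 arrays and form the set described here. Detection was the only criterion, so no difference between the cell types entered the choice beyond the number of arrays with a signal.

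Neurons were grown in Neurobasal medium with cytosine arabinoside, a drug added to remove dividing glia. Oligodendrocytes, the cells that make myelin in the brain, were shaken off mixed cortical cultures after 10 days in vitro and plated on poly-l-lysine. The labels place both cultures at 10 days in vitro, and no sample carried a genetic change or further treatment. These are cultures enriched by a drug or by detachment and not sorted cells, and the labels do not say whether the 3 arrays of a type came from separate preparations. The p-values therefore measure the spread between arrays, which may be technical. In RNA from a whole culture, fewer cells of a type and less miRNA per cell cannot be told apart.

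A miRNA is a short RNA that guides an Argonaute protein to messenger RNAs, mostly through its seed, taken here as bases 2 to 8 from the 5′ end, and lowers their translation or stability. miRNAs with the same seed can share targets, and miRNAs made from 1 transcript form a genomic cluster. In the nervous system miR-137, miR-132, miR-128 and miR-124 are known from neurons, while miR-219 and miR-338 are known to promote the maturation of oligodendrocytes. The miR-17-92 cluster is known for its part in cell proliferation, including that of oligodendrocyte precursors in the mouse.

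Mature sequences of the miRNAs on which the comparison turned are given as RefSeq lists them for rat build GRCr8, with the seed in capitals. The first set holds the oligodendrocyte-associated miRNAs with the widest differences, and none of its 3 members shares a seed with another.
miR-219-5p: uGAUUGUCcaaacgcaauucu
miR-219-2-3p: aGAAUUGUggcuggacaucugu
miR-338: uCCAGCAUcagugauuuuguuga

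The second set holds neuron-associated miRNAs and miR-212, which has the seed of miR-132 and was measured on the other side of zero.
miR-128: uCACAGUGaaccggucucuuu
miR-137: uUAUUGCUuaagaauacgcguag
miR-132: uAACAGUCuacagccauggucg
miR-212: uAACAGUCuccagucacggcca

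The third set holds 4 miRNAs of the miR-17 seed, which were all lower in neurons.
miR-17-5p: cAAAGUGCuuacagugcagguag
miR-20a: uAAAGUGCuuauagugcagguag
miR-93: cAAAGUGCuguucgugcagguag
miR-106b: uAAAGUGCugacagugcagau

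The fourth set holds the 5 measured miRNAs of the miR-15/16 seed, of which 3 were lower and 2 were higher in neurons.
miR-322: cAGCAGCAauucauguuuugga
miR-15b: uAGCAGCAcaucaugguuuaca
miR-16: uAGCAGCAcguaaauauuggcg
miR-195: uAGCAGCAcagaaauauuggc
miR-497: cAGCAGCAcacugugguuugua

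The fifth set holds the 3 members of the miR-125 seed, which also fell on both sides of zero.
miR-351: uCCCUGAGgagcccuuugagccuga
miR-125a-5p: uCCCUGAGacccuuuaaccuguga
miR-125b-5p: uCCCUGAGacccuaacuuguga

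Levels are log2 intensities relative to the 75th percentile of each array, taken over the 175 miRNAs detected on all 6 arrays, so a level of 0 is that percentile and 1 unit is a doubling. Signals below a floor of -7.52 were set to it. Differences are neurons minus oligodendrocytes. The adjusted p comes from limma's moderated test with Benjamini-Hochberg adjustment over all 252 miRNAs, and a miRNA past 0.05 is called higher or lower in neurons. Probes bind with different strength, so levels of different miRNAs were not ranked against each other.

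Summed miRNA signal was 276438 to 514270 on the neuron arrays and 107624 to 185688 on the oligodendrocyte arrays, from 100 ng of total RNA each. Neuron arrays detected 241 to 258 miRNAs and oligodendrocyte arrays 193 to 201. Over the 175 miRNAs detected on all 6 arrays, levels correlated at 0.996 to 0.998 between neuron arrays and at 0.765 to 0.829 between the cell types. Among oligodendrocytes, arrays 1 and 3 correlated at 0.997, while array 2 correlated at 0.965 and 0.978 with them. Oligodendrocyte array 2 stood apart in other respects too. It had the lowest signal, and 376 of its 7000 spots carried an outlier call, against 131 to 187 on the other 5 arrays. Calls of named miRNAs and lists that change without it are given beside the result.

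In the whole set 124 miRNAs (49.2%) were higher in neurons and 75 (29.8%) were lower, so 79.0% were called in limma. Leaving out oligodendrocyte array 2 gave 139 higher and 79 lower. Values of the 3 neuron arrays and the 3 oligodendrocyte arrays did not overlap for 80.2% of the miRNAs. All called miRNAs were among these. With 3 arrays against 3, an exact permutation test of 1 miRNA cannot go below 0.1, so the calls rest on the variance that limma shares across miRNAs.

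Detection separated much of the set. All 6 arrays detected 175 miRNAs, whereas 49 were detected on all neuron arrays and no oligodendrocyte array, and 3 showed the opposite. A further 15 were detected on all neuron arrays and on 1 or 2 oligodendrocyte arrays, and 10 on all oligodendrocyte arrays and 1 or 2 neuron arrays. A miRNA that entered the set through one cell type alone could hardly be other than higher there, so its calls carry little weight. For such miRNAs the fold is given as a lower bound, against the lowest detected signal of each empty array, or the miRNA's own signal there where that was higher. The 175 miRNAs seen on all 6 arrays are also those on which the arrays were scaled, so their centre is set in part by the scaling. Of these, 66 (37.7%) were higher in neurons and 62 (35.4%) were lower, 73.1% in all, with a median difference of 0.03. A difference of at least 1 log2 unit was reached by 33 of the higher and 38 of the lower ones, and 2 units by 16 and 21.

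**Figure D1:**
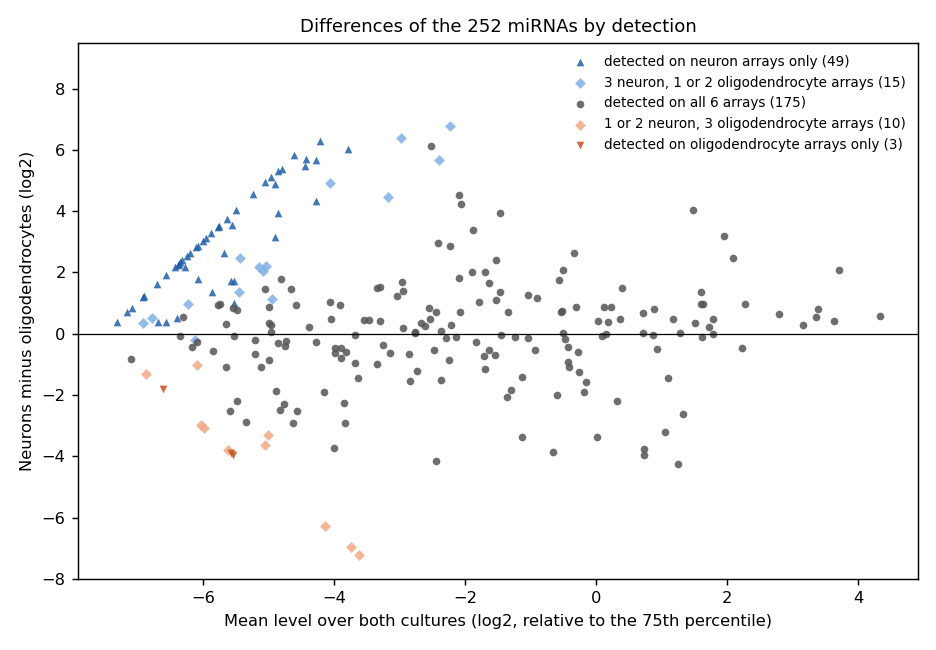
Difference between neurons and oligodendrocytes (log2, vertical axis) against the mean level over both cultures (log2, horizontal axis) for the 252 miRNAs, coloured by the arrays that detected them. The 175 miRNAs detected on all 6 arrays lie on both sides of zero, while the 49 seen on neuron arrays only rise along a line set by the floor.

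Neuron arrays were brighter than oligodendrocyte arrays, and the split between higher and lower depended on how the arrays were scaled. The share of all calls that were higher in neurons was 62.3% as analysed. It was 46.1% with the 75th percentile taken over all entries, 50.2% with quantile normalization, 50.7% in the deposited normalized table, 45.7% with normexp background correction, 74.8% when scaled and fitted with all 13 arrays and 80.6% without scaling. The median difference of the 175 miRNAs moved between -0.54 and 0.87 over these settings, so small differences have no fixed direction. Under 5 other scalings (the 75th percentile over all entries, the median, quantile normalization, all 13 arrays and none), 84 higher and 38 lower miRNAs stayed called in the same direction. Of these, 31 and 26 were among the 175 miRNAs. Over every alternative, normexp and arrays left out included, 44 higher and 37 lower calls were kept.

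Oligodendrocyte-associated miRNAs were lower in neurons by wide margins. miR-338, which promotes oligodendrocyte maturation, measured -0.86, -0.91 and -0.88 in neurons, against 3.79, 2.65 and 3.68 in oligodendrocytes. Oligodendrocyte array 2 was the lowest of its 3 arrays, and the groups did not overlap. The difference was -4.26 ± 0.30 (SE, n = 3 each), 19.1-fold higher in oligodendrocytes, with an adjusted p of 2.39e-05 in limma. miR-219-5p, known for the same role, measured -1.14, -1.27 and -1.34 in neurons, against 2.98, 2.37 and 2.83 in oligodendrocytes. Its groups were again separate on every array. It differed by -3.97 ± 0.18 (SE, n = 3 each), 15.7-fold higher in oligodendrocytes, with an adjusted p of 2.44e-06 in limma. Both miRNAs were thus detected on all neuron arrays, well above the floor.

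miR-219-2-3p, from the other strand of a miR-219 hairpin, was detected on 1 of 3 neuron arrays. It measured -7.27, -7.11 and -7.32 in neurons, close to the floor, against 0.23, -0.42 and 0.17 in oligodendrocytes. The difference of -7.22 was the lowest of the 252 and is limited by the floor. Over the oligodendrocyte-associated list, 6 of 7 tested members were lower in neurons, with a median difference of -2.89, against 29.8% lower and a median of 0.45 in the whole set. The exception, miR-23a, measured 0.65, 0.80 and 0.72 in neurons and 0.63, 0.84 and 0.62 in oligodendrocytes, and its 95% interval ran from -0.22 to 0.28. The members named lower also included miR-338* at -2.89, miR-32 at -2.48 and miR-138, known from dendritic spines of neurons and from early oligodendrocyte differentiation, at -1.09. The lower calls of all but miR-138 held under every alternative in which they were tested; without scaling miR-138 was no longer called.

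Neuron-associated miRNAs were mostly higher in neurons, 13 of 17 tested, with a median difference of 2.07. In the whole set 49.2% were higher, with a median of 0.45. Of the 14 members detected on all 6 arrays, 10 were higher and 2 lower, with a median difference of 1.49. Among all 175 miRNAs detected on all 6 arrays, 37.7% were higher and the median was 0.03. miR-128, a brain-enriched miRNA known to dampen neuronal excitability, measured 3.44, 3.60 and 3.46 in neurons, against -0.81, -0.25 and -0.60 in oligodendrocytes. All arrays of one type lay well apart from those of the other. The difference was 4.05 ± 0.16 (SE, n = 3 each), or 16.6-fold, with an adjusted p of 1.46e-06 in limma. miR-124, a classical neuronal miRNA, measured 3.74, 3.42 and 3.46 in neurons, against -0.83, 1.98 and -0.06 in oligodendrocytes. Oligodendrocyte array 2 stood far above the other 2 but below every neuron array. The difference of 3.18 carried a wide SE of 0.69 (n = 3 each; adjusted p of 0.00533 in limma).

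miR-132, which follows neuronal activity, measured 0.59, 0.54 and 0.39 in neurons, against -4.35, -2.35 and -3.63 in oligodendrocytes. miR-137, linked to synaptic function, measured 0.98, 1.13 and 0.85 in neurons, against -2.65, -0.45 and -1.84 in oligodendrocytes. In both, oligodendrocyte array 2 was again the highest of its group without reaching the neurons. Their differences were 3.95 and 2.64, with adjusted p of 0.00034 and 0.00386 in limma. miR-129 at 2.07, its other strand miR-129* at 2.47 and miR-218, enriched in motor and other neurons, at 1.82 were also called higher.

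Not all neuron-associated miRNAs followed this direction. miR-138 and miR-212 were called lower in neurons, at -1.09 and -0.69; miR-212 turned to 0.15 without scaling. miR-9, a miRNA of neural progenitors and neurons, was bright in both cultures and measured 4.61, 4.65 and 4.61 in neurons, against 4.10, 3.95 and 4.12 in oligodendrocytes. Its difference of 0.57 was called, but turned to -0.19 under quantile normalization and to -0.30 in the deposited table. miR-153 and miR-134 were not called, at 1.16 and 0.46 with adjusted p of 0.0525 and 0.112 in limma. The call of miR-7a, at 1.10, was lost when any 1 array other than oligodendrocyte array 2 was left out. Without oligodendrocyte array 2, 15 of the 17 members were higher and 2 were lower, and miR-153 and miR-134 were called higher at 1.70 and 0.70.

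**Figure D2:**
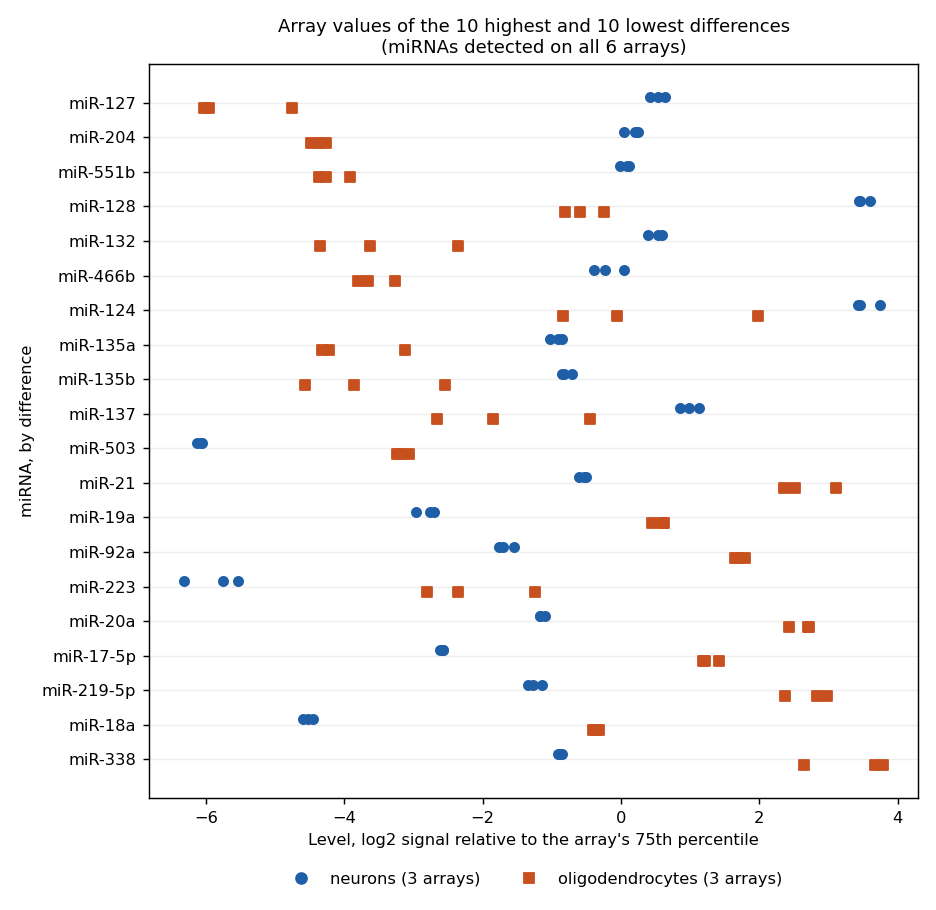
Levels on each array (log2 relative to the 75th percentile, horizontal axis) of the miRNAs with the 10 highest and 10 lowest differences among those detected on all 6 arrays and called. Circles are the 3 neuron arrays and squares the 3 oligodendrocyte arrays; no miRNA overlaps between the types, and for miR-124, miR-135b and miR-137 the oligodendrocyte arrays spread over more than 2 log2 units.

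Other miRNAs with wide differences on all 6 arrays fell outside these lists. miR-204, encoded in an intron of Trpm3 and abundant in choroid plexus and retinal pigment epithelium, measured 0.05, 0.25 and 0.20 in neurons, against -4.48, -4.27 and -4.36 in oligodendrocytes. Here the 3 oligodendrocyte arrays lay close together. The difference was 4.54 ± 0.10 (SE, n = 3 each), or 23.2-fold, with an adjusted p of 2.73e-07 in limma. miR-551b measured 0.12, 0.09 and -0.02 in neurons, against -4.36, -3.92 and -4.26 in oligodendrocytes, a difference of 4.25. miR-466b differed by 3.38, and miR-135a and miR-135b, which share a seed, by 2.96 and 2.86.

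The miR-17-92 cluster and its paralogs were lower in neurons. In 13 of 14 tested members the call was lower, with a median difference of -2.85, against 29.8% lower and a median of 0.45 in the whole set. miR-18a measured -4.46, -4.52 and -4.59 in neurons, against -0.41, -0.32 and -0.36 in oligodendrocytes. The arrays of each type lay close together, with SDs of 0.07 in neurons and 0.04 in oligodendrocytes. The difference was -4.16 ± 0.08 (SE, n = 3 each), 17.9-fold higher in oligodendrocytes, with an adjusted p of 2.39e-07 in limma. miR-17-5p, the founding member of the cluster, measured -2.57, -2.57 and -2.62 in neurons, against 1.18, 1.42 and 1.22 in oligodendrocytes. miR-20a measured -1.17, -1.10 and -1.17 in neurons, against 2.71, 2.44 and 2.70 in oligodendrocytes. Oligodendrocyte array 2 did not stand apart in this cluster, in contrast to the neuron-associated miRNAs.

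By genomic position, the main cluster at chr15:99853755-99854509 (array annotation, rn4, plus strand) had 8 tested members. All 8 were lower in neurons, between -4.16 for miR-18a and -2.64 for miR-19b. The paralogous cluster at chr12:17607981-17608448 (minus strand), which lies within the gene Mcm7 in mammals, had 4 tested members. All were lower but by less, from -1.84 for miR-93 to -1.26 for miR-106b. The calls of miR-106b and miR-25 were lost without scaling, and that of miR-106b* with normexp. Of these members, only miR-93 was called lower in every alternative. miR-20b-5p, from the paralog on the X chromosome, was detected on oligodendrocyte arrays only and was at least 3.53-fold lower in neurons. The exception was miR-92b, which is encoded apart from these clusters. It measured -4.80, -5.67 and -5.31 in neurons and -7.21, -5.20 and -6.29 in oligodendrocytes, with overlapping groups and a difference of 0.97 that was not called (adjusted p of 0.131 in limma). It was called higher when oligodendrocyte array 2 was left out.

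A cluster on the X chromosome behaved likewise. At chrX:139995000-140000232 (rn4, minus strand), 7 tested miRNAs were all lower in neurons, from -3.29 for miR-450a to -2.00 for miR-322. In the whole set 29.8% were lower. miR-322 and miR-503 are known to restrain the cell cycle during muscle differentiation. miR-503 measured -6.05, -6.07 and -6.13 in neurons, against -3.20, -3.07 and -3.24 in oligodendrocytes. Both groups were tight, and the difference was -2.91 ± 0.09 (SE, n = 3 each). miR-542-3p and miR-542-5p, the strands of one hairpin, differed by -2.91 and -2.31. All 7 were lower under every alternative in which they were tested.

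miRNAs of the imprinted Dlk1-Dio3 domain, which are expressed from the maternal chromosome and known from neurons and placenta, were mostly higher in neurons. miR-127, the one member of the proximal cluster detected on all 6 arrays, measured 0.64, 0.54 and 0.42 in neurons, against -5.96, -4.75 and -6.03 in oligodendrocytes. The oligodendrocyte values lay near the floor, with array 2 the highest. The difference of 6.11 ± 0.35 (SE, n = 3 each), or 69.2-fold, was the highest among the 175 miRNAs and had an adjusted p of 8.42e-06 in limma. miR-434 measured 1.09, 1.23 and 1.17 in neurons, against -6.40, -4.70 and -5.77 in oligodendrocytes, and miR-136 measured 0.77, 0.24 and 0.29, against -6.18, -3.95 and -5.58. Each was detected on 2 of 3 oligodendrocyte arrays.

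Of the proximal list 8 of 11 members were tested and 8 were higher, against 49.2% of the whole set. Of these members, 5 were detected on neuron arrays only. The 7 that lie together at chr6:134176812-134187046 (rn4, plus strand) were all higher. miR-136, miR-127 and miR-434 were higher by 5.67 to 6.78. The 4 detected on neuron arrays only were higher by at least 4.86-fold for miR-431 to at least 40.6-fold for miR-136*. With normexp background correction, 5 of the 8 tested proximal members were called higher. There miR-431 turned direction and the call of miR-337 was lost. Of the distal list 32 of 36 were tested and 29 were higher, against 49.2% of the whole set. None was lower and 25 were detected on neuron arrays only. Since most members entered through neuron arrays, these counts describe detection more than they test a difference. Of the 4 distal members detected on all 6 arrays, 1 was higher and 3 were not called, with a median difference of 0.40. Among all 175 miRNAs detected on all 6 arrays, 37.7% were higher. As lower bounds, miR-329 was at least 61.1-fold higher in neurons, miR-410 at least 59.7-fold, miR-495 at least 42.0-fold, miR-136* at least 40.6-fold, miR-323 at least 38.9-fold, miR-379 at least 35.3-fold, miR-382 at least 29.0-fold and miR-433 at least 27.5-fold. The median difference of the distal list was 3.30 as floored and 2.76 with such members at their bound.

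The distal cluster, at chr6:134388218-134425147 (rn4, plus strand), was not uniform. miR-494 measured 1.89, 1.49 and 1.31 in neurons and 1.16, 2.56 and 1.34 in oligodendrocytes, with overlapping groups and a difference of -0.12 (adjusted p of 0.785 in limma). miR-134 was detected on all 6 arrays and was not called either. Without oligodendrocyte array 2, however, miR-134 was called higher at 0.70, miR-494 was at 0.31 (adjusted p of 0.0912 in limma), and 31 of the 32 members were higher. In oligodendrocytes the members thus ranged from a level that overlapped with neurons, for miR-494, to levels at the floor. With normexp background correction, 14 of the 32 were called higher.

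**Figure D3:**
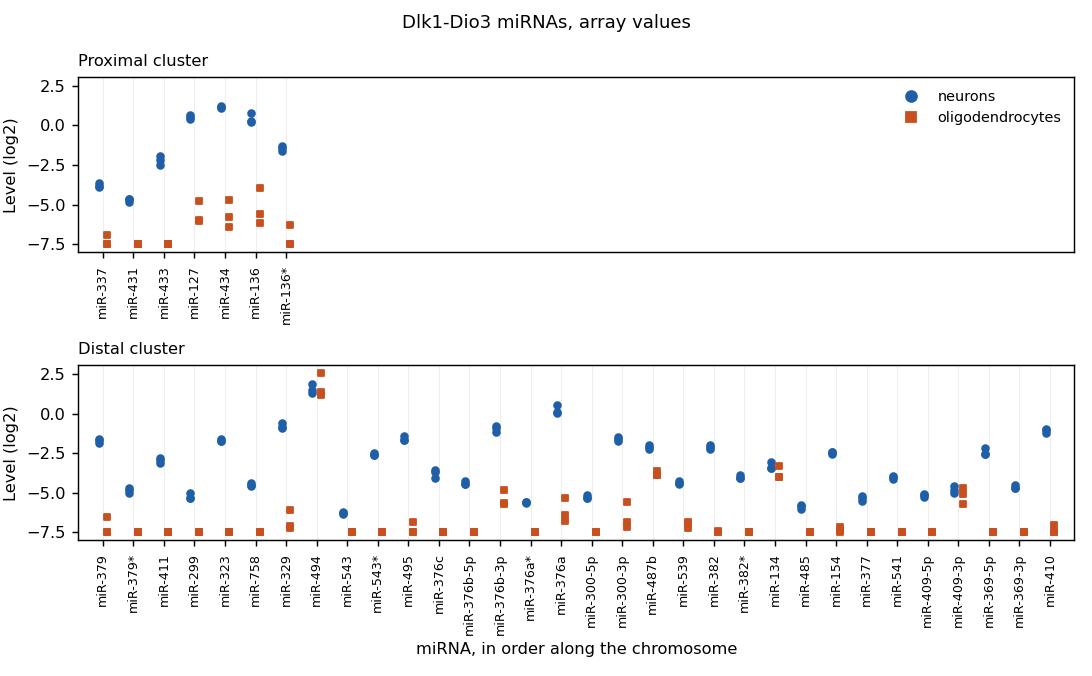
Levels on each array (log2, vertical axis) of the tested Dlk1-Dio3 miRNAs in their order along the chromosome, for the 7 of the proximal and the 32 of the distal cluster. Neuron arrays (circles) lie above oligodendrocyte arrays (squares), many of which sit at the floor of -7.52; miR-494, miR-134 and miR-409-3p are close or overlap.

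RefSeq gave a mature sequence for 198 of the 252 miRNAs, with 151 different seeds. Of the 25 seeds shared by at least 2 miRNAs, 8 had calls in both directions and 17 in 1 direction only. Calls in both directions stayed under all 5 other scalings for the miR-15/16 and miR-125 seeds only. In the other groups with opposed calls, at least 1 side was lost or turned under some scaling. The miR-15/16 seed, printed above, had 5 members, all detected on all 6 arrays, with calls in both directions. miR-497 measured -0.65, -0.70 and -0.72 in neurons, against -3.24, -1.98 and -2.89 in oligodendrocytes, and miR-195, from the same transcript on chromosome 10, was likewise higher in neurons, at 1.66. miR-15b measured -1.30, -1.01 and -1.13 in neurons, against 0.77, 0.78 and 0.76 in oligodendrocytes. Thus miR-497 differed by 2.01 and miR-15b by -1.92, although both have the same bases 2 to 8.

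This contrast does not depend on scaling between arrays, since the log ratio of miR-497 to miR-15b is formed within an array. That ratio was 0.46 ± 0.17 in neurons and -3.47 ± 0.64 in oligodendrocytes (SD, n = 3 each), and no arrays overlapped. The ratio of 2 probes does not give relative abundance, so only its change between the cultures is read. miR-322 followed miR-15b at -2.00. miR-16, which is made with miR-15b on chromosome 2, differed by only -0.46, and miR-16 has a further gene copy in mouse and human. Its direction turned without scaling, whereas the directions of the other 4 were kept under every alternative.

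The miR-125 seed showed a similar spread. miR-125b-5p, linked to neuronal and astrocyte function, measured 4.75, 4.78 and 4.69 in neurons, against 2.31, 3.13 and 2.58 in oligodendrocytes, a difference of 2.07. miR-125a-5p differed by 0.43, a value that turned with the 75th percentile over all entries. miR-351, of the X-chromosome cluster above, was detected on 1 neuron array and lay at the floor there, against -4.78, -4.14 and -4.72 in oligodendrocytes. Its difference of -2.97 places it opposite miR-125b-5p, with which it shares all 7 seed bases.

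miR-132 and miR-212 share a seed and are made from 1 transcript in mammals; the array annotation places them within 1 kilobase on chromosome 10. miR-212 measured -1.70, -1.89 and -2.09 in neurons, against -1.33, -0.88 and -1.39 in oligodendrocytes. Against the 3.95 of miR-132, its difference was -0.69. The log ratio of miR-132 to miR-212 within an array was 2.40 ± 0.10 in neurons and -2.25 ± 0.77 in oligodendrocytes (SD, n = 3 each). The differences of these cluster partners were thus 4.64 log2 units apart, the widest spread of a seed group whose extremes were both detected on all 6 arrays.

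In some other seed groups the called members agreed in direction. The 5 miRNAs of the miR-17 seed were all lower in neurons, from -3.86 for miR-17-5p to -1.26 for miR-106b, whose call was lost without scaling. The 4 of the miR-34 seed, known from the p53 response and from ciliated cells, were all higher, from 0.89 for miR-34a to at least 9.0-fold for miR-449a, which was detected on neuron arrays only; with normexp 1 of the 4 was called. All 3 of the miR-29 seed, which rises as the brain matures, were higher, between 0.97 and 1.48. Of the 8 let-7 miRNAs, which restrain proliferation, 5 were higher and 3 were not called, and no difference exceeded 0.79. The let-7 and miR-30 directions were not stable: with the 75th percentile over all entries, 0 of 10 tested let-7 list members were higher and 3 were lower, and 1 of 10 miR-30 list members was higher, against 8 as analysed and 10 without oligodendrocyte array 2. Under that setting, calls higher numbered 2 of the 4 miR-34 and miR-449a miRNAs and 2 of the 5 tested miR-29 list members.

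**Figure D4:**
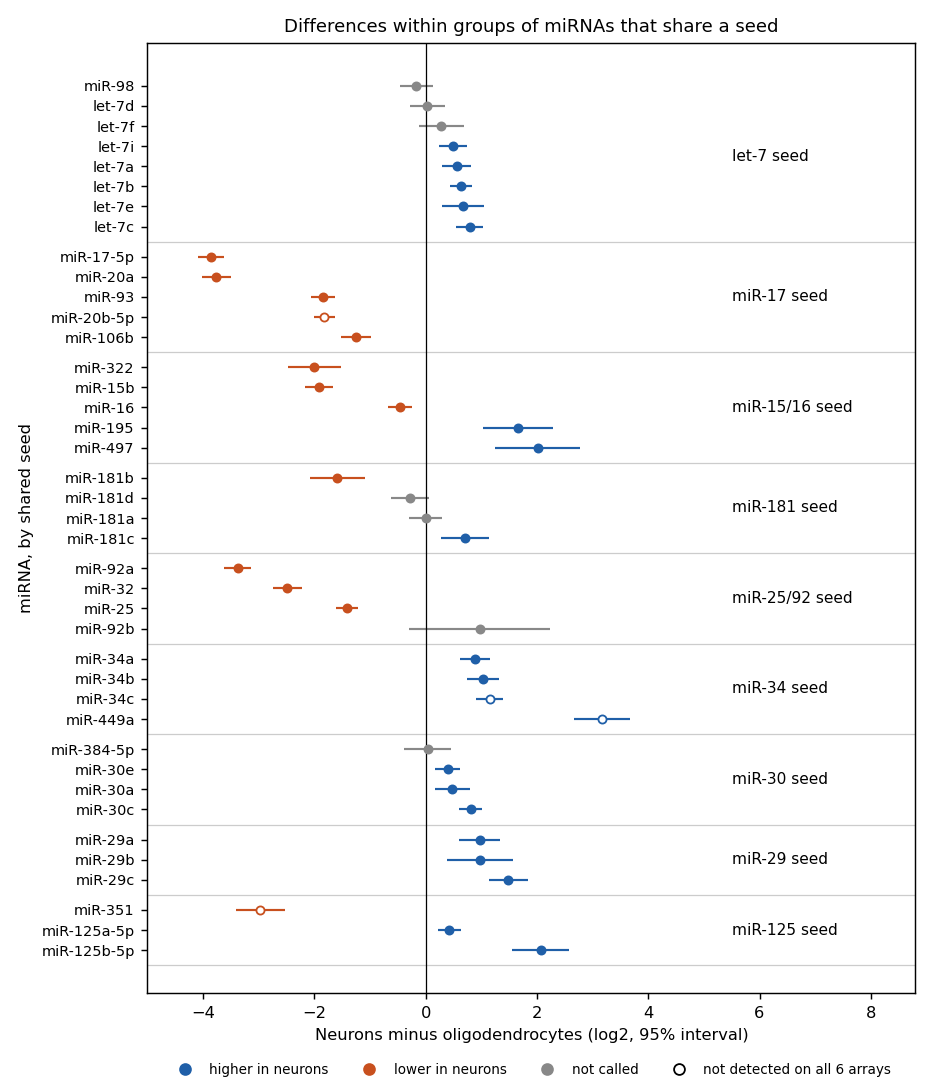
Difference between neurons and oligodendrocytes (log2, points, with 95% intervals from limma as bars) for miRNAs in seed groups of at least 3 members. The miR-17 and miR-34 groups lie on one side of zero each, while the miR-15/16 and miR-125 groups span it, from -2.00 to 2.01 and from -2.97 to 2.07; open points depend on the floor.

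The miR-23, miR-27 and miR-24 miRNAs come from 2 paralogous clusters. At chr17:7350974-7351724 (rn4, minus strand) all 3 were lower in neurons, with miR-27b at -2.21, miR-23b at -1.43 and miR-24 at -0.52. Without scaling, miR-24 turned to 0.33 and miR-23b, at -0.59, was not called. Of the paralogous cluster at chr19:25638492-25638802 (minus strand), miR-27a was lower at -0.42, and the other 3 were not called, among them miR-23a. miR-27a turned to 0.42 without scaling and to 0.018 with all 13 arrays, while without oligodendrocyte array 2 1 of the 7 miR-23/27/24 miRNAs, miR-23a*, was higher and 5 were lower. Probes for miR-23a and miR-23b, and for miR-27a and miR-27b, may bind both members of the pair, as their sequences are nearly the same. Within an array, the log ratio of miR-27a to miR-27b was 0.15 ± 0.05 in neurons and -1.64 ± 0.51 in oligodendrocytes (SD, n = 3 each), so the pair was still separated on the array.

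Of the 9 tested miR-99/100 and miR-125 list members, 5 were higher and 2 lower in neurons, shares near the 49.2% and 29.8% of the whole set. miR-100 and miR-99b share a seed and differed by 1.77 and -0.53, of which the second turned without scaling. miR-181b was lower at -1.59 and miR-181c higher at 0.71, although the seed is the same, while miR-181a and miR-181d were not called. The call of miR-181b was lost without scaling, and that of miR-181c with the 75th percentile over all entries. miR-221 and miR-222, which promote the cell cycle, were both higher, at 1.38 and 2.04. With normexp neither was called and miR-222 turned to -0.017, and the call of miR-221 was also lost under quantile normalization, in the deposited table and when any 1 array other than oligodendrocyte arrays 1 and 2 was left out. miR-26a was higher at 0.98 and miR-26b was not called at -0.09. Of miR-130b and miR-301a, related miRNAs, the first was detected on neuron arrays only and was at least 3.32-fold higher. With normexp miR-130b turned to -0.21. miR-301a was lower at -0.58, which turned without scaling.

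miRNAs with little difference were also found at high precision. Of those detected on all 6 arrays, miR-181a, miR-23a, miR-103, miR-101b, miR-361 and miR-339-3p had the 95% intervals closest to zero. miR-361 measured -1.40, -1.45 and -1.57 in neurons and -1.41, -1.42 and -1.42 in oligodendrocytes, with an interval from -0.27 to 0.15. miR-103, a ubiquitous miRNA, had an interval from -0.29 to 0.20. These intervals hold for the scaling used, and miR-361 was 0.79 without scaling.

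The 2 strands of a hairpin were compared as a log ratio within each array, which needs no scaling between arrays. Of 26 hairpins with both strands detected on all 6 arrays, 8 (30.8%) had a ratio that differed between the cell types. miR-338 over miR-338* was 5.90 ± 0.41 in neurons and 7.26 ± 0.56 in oligodendrocytes (SD, n = 3 each). The difference was -1.36, with an adjusted p of 0.0287 in limma, and miR-338* lay near the floor in neurons. miR-872 over miR-872* was 3.72 ± 0.14 in neurons and 2.72 ± 0.25 in oligodendrocytes, a difference of 1.00 with an adjusted p of 0.0107 in limma, which turned to -0.47 with normexp and to -0.22 in the deposited table. The differences of the other 6 were -0.95 for miR-760, 0.87 for miR-181a, 0.60 for miR-542, 0.42 for miR-99a, -0.41 for miR-129 and -0.34 for miR-532. The calls were fragile: leaving out 1 array gave between 0 and 10 of them, the lowest without neuron array 3 and the highest without oligodendrocyte array 2.

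Markers of other cell types differed too. Of the myeloid list, 7 of 8 members were tested, and 4 were lower and 3 higher in neurons, against 29.8% and 49.2% in the whole set. miR-146a, a miRNA of immune signalling, measured -7.45, -6.92 and -7.32 in neurons, against -0.90, 0.59 and -0.49 in oligodendrocytes. miR-223, of the granulocyte and monocyte lineage, measured -5.53, -6.32 and -5.75 in neurons, against -2.81, -1.25 and -2.36 in oligodendrocytes. miR-142-3p and miR-142-5p, which are restricted to blood-derived cells, were lower as well, by -6.28 and by at least 15.5-fold. On a scale set over all 13 arrays, the oligodendrocyte level was 2.92% of the microglia level for miR-146a, 4.33% for miR-142-3p, 4.97% for miR-142-5p and 2.48% for miR-223. The microglia arrays lay on the other slide.

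The summed level of the myeloid list was -0.0046 to 0.08 on neuron arrays and 0.74 to 1.80 on oligodendrocyte arrays, and miR-150 was undetected in both cultures. Such sums add probes of different brightness, and this one includes the members called higher in neurons. The other 3 tested members, miR-146b, miR-342-3p and miR-342-5p, were called higher in neurons, at 0.47, 0.74 and 0.93. The first and the third turned under several settings, and the call of miR-342-3p was lost with the 75th percentile over all entries. miR-146a and miR-146b have the same seed, and their differences of -6.97 and 0.47 lay on both sides of zero as analysed. That of miR-146a is limited by the floor in neurons, and that of miR-146b is among those that turned. The part of myeloid cells in the oligodendrocyte cultures was not tested.

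The astrocyte-associated list had 5 of 11 members higher and 5 lower in neurons, against 49.2% and 29.8% in the whole set, with summed levels of 5.60 to 5.71 on neuron arrays and 4.99 to 5.11 on oligodendrocyte arrays. miR-21, common in glia and in proliferating cells, measured -0.53, -0.50 and -0.61 in neurons, against 2.35, 3.11 and 2.52 in oligodendrocytes, and was 9.25-fold higher in oligodendrocytes (adjusted p of 1.3e-05 in limma). miR-29a, miR-29b and miR-29c were higher in neurons instead. No member of this list was at the floor in either culture.

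Several miRNAs of vascular, blood, fibroblast, choroid plexus and muscle cells were detected on neuron arrays only. miR-126, of endothelial cells, was at least 4.00-fold and miR-451, of red blood cells, at least 6.69-fold higher in neurons; miR-143, miR-145 and miR-144 were not in the tested set. miR-449a, of ciliated epithelia, was at least 9.0-fold higher. miR-133b and miR-206, known from muscle, were at least 3.25-fold and 2.00-fold higher. The calls of all these were lost or reversed with normexp background correction. miR-199a-3p, of fibroblasts, ran the other way and was at least 14.8-fold lower in neurons, while miR-214, which is made with it in mammals, was at least 3.28-fold higher and turned to -0.20 with normexp. None of the 5 miR-200 family entries, which mark epithelia, was detected on any of the 6 arrays. The part of these cell types in the cultures was not tested.

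Oligodendrocyte array 2 differed from arrays 1 and 3 by list. It was the highest of the 3 arrays for 14 of 17 neuron-associated and 6 of 7 myeloid miRNAs, against 127 of all 252, and the lowest for 4 of 7 oligodendrocyte-associated miRNAs, against 87 of 252. Its gap to the mean of the other 2 was 2.43 for miR-124 and -1.09 for miR-338, the lowest of the oligodendrocyte-associated list. The median gap was 0.72 for neuron-associated, 0.85 for myeloid and -0.12 for oligodendrocyte-associated miRNAs, against 0.02 for the whole set. Other lists moved too, such as the proximal Dlk1-Dio3 list at 0.90 and the miR-29 family at -0.42. Of the 43 miRNAs at least 1 log2 unit higher in neurons than on arrays 1 and 3, 40 were closer to neurons on array 2. Of the 40 that were at least 1 unit lower, 26 were, a share near the 110 of all 175 miRNAs detected on all 6 arrays. The cell make-up and signal of this array cannot be told apart with 1 array.

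**Figure D5:**
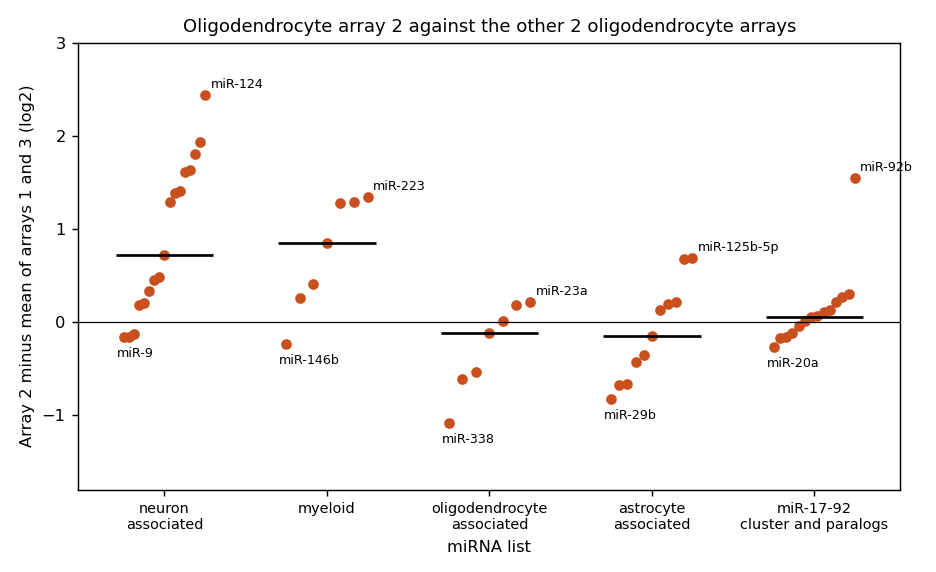
Level on oligodendrocyte array 2 minus the mean of arrays 1 and 3 (log2, vertical axis) for the members of 5 lists (horizontal axis); each point is a miRNA, bars are list medians, and the highest and lowest members are named. Neuron-associated and myeloid miRNAs lie mostly above zero, with medians of 0.72 and 0.85, and the miR-17-92 miRNAs lie around zero except miR-92b.

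The detection criterion left miRNAs close on either side. Those detected on exactly 3 arrays numbered 52, of which 49 were seen in neurons only and 3 in oligodendrocytes only, namely miR-142-5p, miR-199a-3p and miR-20b-5p. Just outside were 8 miRNAs detected on 2 arrays, with levels from -7.52 to -5.52: miR-1, miR-148b-5p, miR-196c, miR-30d*, miR-363, miR-380, miR-381 and miR-483. A further 6 were seen on 1 array and 84 on none.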

How the data were processed

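Cy3-labelled RNA was hybridized to Agilent rat miRNA arrays. Spot and miRNA intensity values were made by the authors with Agilent Feature Extraction 9.5.3.1 (design build rn4), background-subtracted with spatial detrending and not scaled between arrays, per the file headers. The same deposited files hold the detection calls and spot flags. The deposited series table holds log2 values whose scale, as its values show, is that of quantile-normalized total signal; its method is not given in the sources used here, and it served as an alternative. Its median was 5.24 on 5 arrays and 5.22 on oligodendrocyte array 2.

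Processed spot intensities without outlier calls were averaged per probe and then per miRNA (938 probes for 350 miRNAs), divided by the array's 75th percentile over 175 miRNAs, raised to a floor of 0.546% of it, the median of the lowest signals that the arrays detected, and log2-transformed. The 6 arrays were fitted in R 4.3.3 with limma 3.58.1 (lmFit, eBayes), with a threshold of 0.05. The steps were tested on simulated data. Strand ratios were fitted likewise over 26 hairpins. Clusters joined tested miRNAs within 10 kilobases in rn4. Tables and plots used Python 3.11.15, pandas 2.3.3, numpy 2.4.6 and matplotlib 3.10.9.

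Members, miRNA lists and the naming rule were chosen with earlier results of these data known. Named were the 10 highest and 10 lowest differences among miRNAs on all 6 arrays, the highest bounds per direction, all tested members of the neuron, oligodendrocyte and myeloid lists, extremes and exceptions of other lists and seed groups, the intervals closest to zero, called strand pairs, the widest array ranges and miRNAs at the detection limit; other cluster members and miR-409-3p were chosen with their values in view.

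The alternatives covered normexp (offset 50), 4 other scalings, the deposited table, gene-level signal, brightest probe, other filters, a floor at the 5th percentile of entries above 0, eBayes with trend, the replicate block, all 13 arrays and leaving out each array. The number of arrays limits the precision.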

Additional observations from a re-analysis of the deposited data

How the results depend on the processing

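Of 96 called among 114 named miRNAs, 57 kept call and direction in every alternative; 28 named miRNAs changed direction in at least 1, and 32 lost a call. Over all called miRNAs, 44 higher and 37 lower held in every alternative. The cause of each change was not tested unless given.

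The count higher in neurons was 69 with normexp and 66 among miRNAs detected on all 6 arrays, where fewer are tested; the count lower was 38 without scaling. Of miRNAs detected on all 6 arrays, 33 were higher with the 75th percentile over all entries, and 26 were lower without scaling and 41 with all 13 arrays. Leaving out 1 array gave 115 to 139 higher and 70 to 79 lower. Strand pairs numbered 17 with quantile normalization, 14 in the deposited table, 4 with the brightest probe, 4 with all 13 arrays, 22 of 50 with both arms on at least 3 arrays, and 0 to 10 with 1 array left out.

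Same-numbered arrays did not deviate together (r of -0.26, -0.32 and -0.06), so the numbers do not pair them. With the replicate block 120 were higher and 74 lower, and 1 strand pair was called.

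Directions of miRNAs named here turned as follows, and that of miR-431 turned with normexp. With normexp, miR-126 was -0.16, miR-130b -0.21, miR-133b -0.28, miR-146b -0.23, miR-206 -0.32, miR-222 -0.017, miR-30c-2* -0.055, miR-342-5p -0.34, miR-34c -0.22, miR-7b -0.036, miR-99a* -0.015, miR-214 -0.20 and the strand ratio of miR-872 -0.47. With the 75th percentile over all entries, miR-146b was -0.094, miR-23a -0.54, miR-9 -0.0015, miR-125a-5p -0.14 and miR-9* -0.14. With quantile normalization, miR-23a* was -0.58, miR-342-5p -0.12, miR-9 -0.19 and miR-9* -0.24. In the deposited table, miR-146b was -0.0012, miR-23a* -0.20, miR-342-5p -0.051, miR-9 -0.30, miR-9* -0.24 and the strand ratios of miR-872 -0.22 and miR-129 0.022. Without scaling, miR-103 was 0.80, miR-181a 0.84, miR-212 0.15, miR-301a 0.26, miR-361 0.79, miR-532-3p 0.54, miR-532-5p 0.20, miR-99b 0.31, miR-24 0.33, miR-27a 0.42, miR-16 0.39 and miR-99b* 0.19. With all 13 arrays, miR-101b was 0.35, miR-103 0.40, miR-181a 0.44, miR-26b 0.35, miR-339-3p 0.36, miR-361 0.38, miR-532-3p 0.14, miR-27a 0.018 and miR-98 0.27. Signals at the floor have no order, and their differences depend on it.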
